A study of Mus musculus with 6 samples.

Results

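The gene Trp53, which encodes the transcription factor p53, and 9 genes that p53 is known to activate (Cdkn1a, Mdm2, Ccng1, Phlda3, Eda2r, Aen, Sesn2, Zmat3 and Fas) were followed across the cell types and genotypes of the embryonic mouse retina. These 10 genes, of 27998 counted, were taken as a named list. Single-cell RNA-seq (10x Genomics 3' chemistry, version 2) had been run on mouse retinal cells at embryonic day 14. The 6 libraries formed 3 groups of 2. The Bax het Atoh7 null group carried 1 intact copy of Bax and no Atoh7, the Bax null group lacked Bax and kept Atoh7, and the Bax null Atoh7 null group was labelled as lacking both (its Bax RNA is given below). Each of these groups was thus labelled with a deletion of at least 1 of the 2 genes, and no group with both genes intact was compared. The alleles' names, the strain, the promoter of any Cre and the number of embryos per library were not given in the labels, and they do not say that the 2 libraries of a group came from separate animals, so the tests measure the spread between these libraries.

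p53 is held at a low level by Mdm2, a ubiquitin ligase that marks it for degradation and is itself a p53 target. When DNA damage or other stress stabilises p53, it binds DNA as a tetramer and raises transcription of genes for cell-cycle arrest (Cdkn1a), for feedback (Mdm2, Ccng1), for stress metabolism (Sesn2) and for cell death (Fas, Aen, Phlda3, Bbc3), the last of which acts through Bax. p53 is regulated largely at the protein level, which these RNA counts do not measure. Atoh7 is a transcription factor that acts in progenitors and promotes the formation of retinal ganglion cells, the neurons that send axons to the brain. Ganglion cells that form without Atoh7 are known to die through Bax.

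The promoters of 3 members are printed because p53 binds DNA at this kind of element and because Cdkn1a is the member on which most results below turn. A p53 response element is a pair of 10-base units, and single units were searched on both strands by the name p53 consensus, with a pair called when the spacer was at most 13 bases. Each sequence runs 5′ to 3′ on the gene's strand from 250 bases before to 50 bases after the RefSeq start site (GRCm38.p6), with the matching units in capitals. Cdkn1a lies at chr17:29090729-29091028 (plus strand), Ccng1 at chr11:40755237-40755536 (minus strand) and Mdm2 at chr10:117710709-117711008 (minus strand).
Cdkn1a: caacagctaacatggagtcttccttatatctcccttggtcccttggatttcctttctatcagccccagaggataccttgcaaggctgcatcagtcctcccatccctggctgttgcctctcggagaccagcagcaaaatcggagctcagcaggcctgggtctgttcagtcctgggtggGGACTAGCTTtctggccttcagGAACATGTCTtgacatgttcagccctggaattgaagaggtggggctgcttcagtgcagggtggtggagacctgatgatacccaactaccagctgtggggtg
Ccng1: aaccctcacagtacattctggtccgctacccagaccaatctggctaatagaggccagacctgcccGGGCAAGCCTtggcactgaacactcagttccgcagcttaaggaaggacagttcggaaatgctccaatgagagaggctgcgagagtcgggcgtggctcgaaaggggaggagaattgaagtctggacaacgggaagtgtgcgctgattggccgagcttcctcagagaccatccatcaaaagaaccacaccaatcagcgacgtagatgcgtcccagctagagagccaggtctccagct
Mdm2: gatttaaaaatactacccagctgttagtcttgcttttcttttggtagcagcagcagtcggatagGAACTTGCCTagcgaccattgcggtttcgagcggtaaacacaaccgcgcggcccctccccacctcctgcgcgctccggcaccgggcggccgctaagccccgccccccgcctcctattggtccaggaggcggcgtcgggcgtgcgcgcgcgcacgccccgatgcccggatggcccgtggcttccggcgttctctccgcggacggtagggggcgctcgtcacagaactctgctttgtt
The Cdkn1a window printed here held 2 units, which start 73 and 51 bases before its start site and form a pair. The Ccng1 unit starts 185 bases and the Mdm2 unit 186 bases before the start site of its gene. A second Cdkn1a promoter, at chr17:29093519-29093818 (plus strand), held 0 units and no pair. Of the 10 members, 9 had an entry with 11 promoters between them, and Zmat3 had none. At least 1 unit was found in 6 of these promoters, which belong to 5 members (Aen, Mdm2, Ccng1, Trp53 and Cdkn1a), against 8.36% of all 32851 promoters of this length. The 2 Aen promoters overlap and hold the same unit, so that 1 site is counted in both. A pair was found in 24 of all promoters (0.0731%), and Cdkn1a was the only member with one. These matches describe letters in a window and were not tested for binding.

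The 6 libraries held 67050 of the 93128 cells in the matrix. They summed to between 22463515 and 66594431 unique molecular identifiers (UMIs, each counting 1 captured RNA molecule), and a further 26078 cells from libraries that belong to no sample were not used. Median UMIs per cell were 5660.5 and 6804 in the Bax null libraries, while the other 4 ranged from 1634 to 2632, so that genotype and depth, or any other difference in how the Bax null libraries were made, cannot be told apart. Atoh7 gave 0 UMIs in all 4 Atoh7 null libraries and 5.96 and 6.88 CPM (counts scaled to a common library total) in the Bax null libraries. Bax RNA stood at 144 and 108 CPM in the Bax het Atoh7 null libraries, at 17.1 and 14.99 CPM in the Bax null libraries, and at 47.7 and 11.0 CPM in the libraries labelled Bax null Atoh7 null replicates 1 and 2, so replicate 1 of that group goes partly against its label. Those 2 libraries shared 2596 cell barcodes (17.6% of the cells of replicate 1 and 21.97% of replicate 2), against at most 2.09% of the smaller library in any other pair. In the shared barcodes the UMI total in replicate 1 was a median 0.380 of that in replicate 2, and 89.4% had the same cell type in both. The values below are therefore also given without replicate 1 or without the shared barcodes where that changes a call. In replicate 1 Bax measured 16.9 CPM in the shared barcodes and 51.5 CPM in the rest, so leaving the shared barcodes out keeps the cells with more Bax RNA.

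The authors had labelled the cells as 5 types: retinal progenitor cells (dividing), neurogenic cells (progenitors leaving the cell cycle), retinal ganglion cells, cones and cells labelled horizontal. Ganglion cells numbered 667 and 1056 in the Bax het Atoh7 null libraries, 1772 and 1571 in the Bax null libraries, and 1153 and 1138 in the Bax null Atoh7 null libraries. Their 10-gene marker list summed to between 8771 and 13460 CPM, against 55.7 to 136.5 CPM in progenitors. Cells labelled horizontal carried the horizontal cell list at 1615 to 3005 CPM but also 3 amacrine genes at 605 to 735 CPM and 3 endothelial genes at 237 to 348 CPM, so that label covers more than 1 cell type and is used here only as a label.

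Cdkn1a, which encodes the cell-cycle inhibitor p21, was lowest in progenitors among the 4 labels that cover mainly 1 cell type, and higher in the cells that were leaving or had left the cycle. Its mean over the 6 libraries, in CPM of all UMIs of the type, was 20.9 in cones (12.3 to 31.4), 19.9 in ganglion cells (6.24 to 40.9), 14.1 in neurogenic cells (8.16 to 19.5), 6.42 in progenitors (3.21 to 10.5) and 4.52 in cells labelled horizontal (0.671 to 10.9). In 6 of 6 libraries the cones, the ganglion cells and the neurogenic cells each lay above the progenitors of the same library. The order among those 3 was not stable, since cones lay above ganglion cells in 4 libraries and ganglion cells above neurogenic cells in 3. The types were defined from all genes of these cells, so this order is a description without a test.

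**Figure D1:**
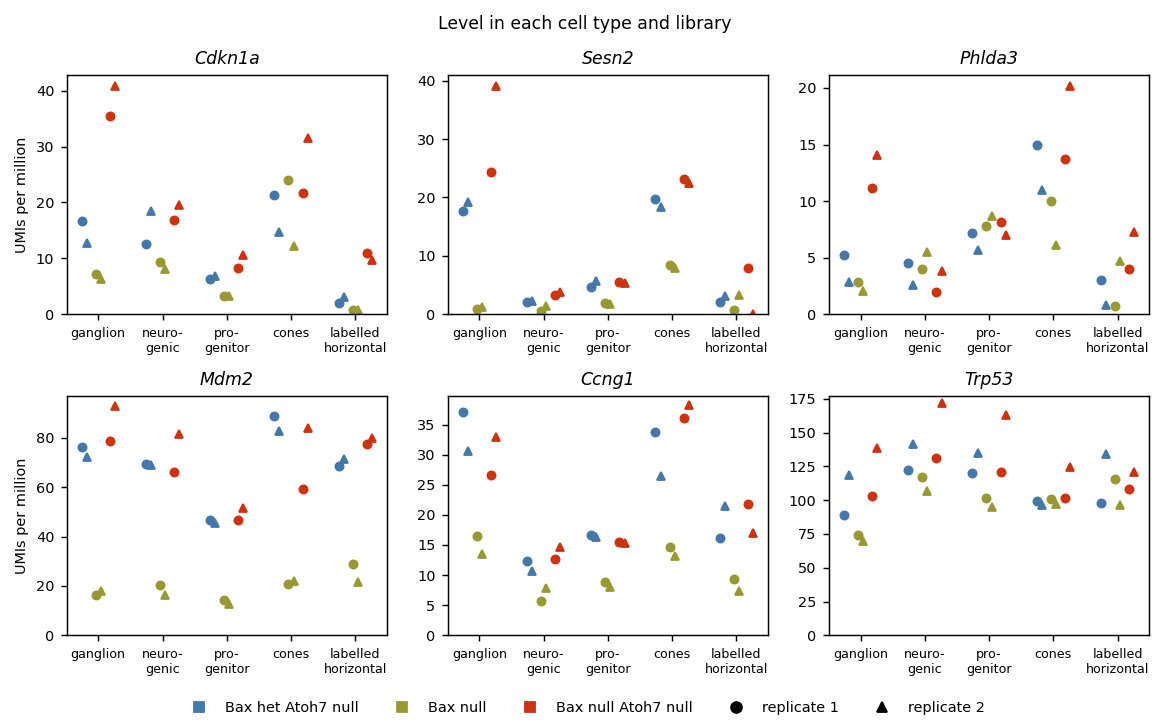
Level of Cdkn1a, Sesn2, Phlda3, Mdm2, Ccng1 and Trp53 in CPM of all UMIs of the cell type (vertical axes, each starting at 0) in the 5 cell types (horizontal axis), with 1 point per library coloured by genotype. Cdkn1a lies higher in cones, ganglion cells and neurogenic cells than in progenitors, and the ganglion cell points of Sesn2 spread from 0.859 to 39.1 CPM.

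The feedback genes had a similar order. Mdm2 averaged 59.7 CPM in cones, 59.1 in ganglion cells, 58.0 in cells labelled horizontal and 53.8 in neurogenic cells, against 36.3 in progenitors, and each of the 4 lay above the progenitors in 6 of 6 libraries. Ccng1, the gene of cyclin G1, averaged 27.1 CPM in cones and 26.2 in ganglion cells, and both lay above progenitors (13.4 CPM) in every library. Neurogenic cells had the lowest Ccng1 mean, 10.7 CPM, below the progenitors in 6 of 6 libraries. Mdm2 and Ccng1 thus differed in the neurogenic cells, where Mdm2 was above the progenitor level and Ccng1 below it. Zmat3, which encodes a zinc finger RNA-binding protein, averaged 25.3 CPM in ganglion cells and 13.8 in progenitors, with ganglion cells higher in 6 of 6 libraries.

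Sesn2 encodes a sestrin that acts in the response to oxidative stress and amino acid shortage, and its mean was highest in ganglion cells and cones. It averaged 17.1 CPM in ganglion cells (0.859 to 39.1) and 16.7 CPM in cones (7.88 to 23.1), against 4.14 CPM in progenitors, 2.85 in cells labelled horizontal and 2.23 in neurogenic cells. Cones exceeded progenitors in 6 of 6 libraries and ganglion cells in 4, the exceptions being both Bax null libraries. In the 4 Atoh7 null libraries 64.7% to 86.5% of the ganglion cell Sesn2 UMIs lay in 1 cluster of cells, described below as cluster 62. Phlda3, whose product blocks membrane recruitment of the kinase Akt, averaged 12.7 CPM in cones, 7.43 in progenitors, 6.36 in ganglion cells (2.02 to 14.1), 3.72 in neurogenic cells and 3.41 in cells labelled horizontal. The only neighbouring pair in that order that kept its direction in over 4 libraries was cones above progenitors, in 5 of 6.

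Trp53 RNA instead had its lowest means in ganglion cells and cones. It averaged 132 CPM in neurogenic cells, 122.5 in progenitors, 112 in cells labelled horizontal, 103 in cones and 98.9 in ganglion cells. Neurogenic cells lay above progenitors in 6 of 6 libraries and ganglion cells lay above progenitors in 0 of 6, while the neighbours lower in the order overlapped. Aen, which encodes an exonuclease that acts in apoptosis, differed little between types, from 18.1 CPM in neurogenic cells to 13.4 in cones, and its wide range (1.12 to 44.2 CPM over types and libraries) came from the Bax null group described below. The 2 receptor genes were near the limit of detection. Eda2r, a receptor of the tumour necrosis factor family, gave 73 UMIs in all 67050 cells, with its highest mean, 1.12 CPM, in cones. Fas, the death receptor, gave 19 UMIs, of which 15 were in progenitors and 0 in ganglion cells, where 3 counts would be 0.0971 CPM.

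Group differences were tested on UMI sums per library and cell type with edgeR's quasi-likelihood test, after TMM scaling (a trimmed mean of the log ratios between libraries) and with Benjamini-Hochberg adjustment over all genes. "Called" means an adjusted p under 0.05, and levels in these comparisons are TMM-scaled CPM. Eda2r and Fas were too low to be tested in any of the 5 types, so 8 of 10 members were tested in ganglion cells, neurogenic cells, progenitors and cones (Eda2r entered only the later test of cones against progenitors, where it was not called). In cells labelled horizontal Phlda3 and Sesn2 were also too low, which left 6. With total UMIs as the only scaling the median log2 difference of all genes in ganglion cells stood at 0.50 and 0.63 in the 2 contrasts against Bax null (0.01 and 0.02 with TMM) and at 0.12 in the third (0.00 with TMM), so directions against Bax null are given relative to the TMM scale.

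The first comparison, Bax null Atoh7 null against Bax het Atoh7 null, asks what loss of the remaining Bax copy changes where Atoh7 is absent. In ganglion cells Cdkn1a and Phlda3 were higher in the Bax null Atoh7 null libraries. Cdkn1a stood at 15.3 and 11.8 CPM in the Bax het Atoh7 null libraries, at 30.7 and 34.0 in the Bax null Atoh7 null libraries, and at 9.18 and 8.15 in Bax null. Both Bax null Atoh7 null libraries lay above all 4 others. The log2 difference from Bax het Atoh7 null was 1.28 (SE 0.19, adjusted p = 0.00377). The call was lost without replicate 2 of Bax het Atoh7 null (1.08, adjusted p = 0.080) and kept without Bax null Atoh7 null replicate 1 (1.36, adjusted p = 0.000799) and without the shared barcodes (1.32, adjusted p = 0.00431).

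Phlda3 gave few molecules, between 8 and 32 UMIs per library in ganglion cells. Its level was 4.79 and 2.63 CPM in the Bax het Atoh7 null libraries, 3.67 and 2.64 in Bax null, and 9.66 and 11.7 in the Bax null Atoh7 null libraries. Again the Bax null Atoh7 null libraries did not overlap the others. The log2 difference from Bax het Atoh7 null was 1.59 (SE 0.37, adjusted p = 0.0456), close to the threshold. It was not called without the shared barcodes (1.62, adjusted p = 0.0512), nor without either Bax het Atoh7 null library (2.01, adjusted p = 0.0747, without replicate 1 and 1.16, adjusted p = 0.442, without replicate 2), either Bax null library (1.59 in both, adjusted p = 0.0708 and 0.0664) or Bax null Atoh7 null replicate 2 (1.45, adjusted p = 0.121). It was called without Bax null Atoh7 null replicate 1 (1.73, adjusted p = 0.0344).

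The other 6 tested members were not called in this comparison. Sesn2 measured 16.3 and 17.8 CPM in the Bax het Atoh7 null libraries and 21.1 and 32.5 in the Bax null Atoh7 null libraries, a log2 difference of 0.64 (SE 0.23, adjusted p = 0.231), with no overlap between the groups. Without Bax null Atoh7 null replicate 1 it was 0.92 and was called (adjusted p = 0.0235). Ccng1 was 34.0 and 28.3 CPM in the Bax het Atoh7 null libraries and 23.1 and 27.4 in the Bax null Atoh7 null libraries, with a log2 difference of -0.28 (SE 0.18, adjusted p = 0.56). Mdm2 measured 70.0 and 67.1 CPM against 68.3 and 77.5, a log2 difference of 0.09 (SE 0.12). Trp53 itself measured 81.5 and 110 CPM against 89.7 and 115 (0.07, SE 0.15), and Aen and Zmat3 differed by 0.26 (SE 0.44) and -0.16 (SE 0.19). Of the 8 tested members 2 were called, both higher. Over all 10586 genes tested 2.34% were called in either direction, and 0.246% were called higher (26 genes). The median log2 difference of the tested members was 0.17, against 0.00 over all genes.

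**Figure D2:**
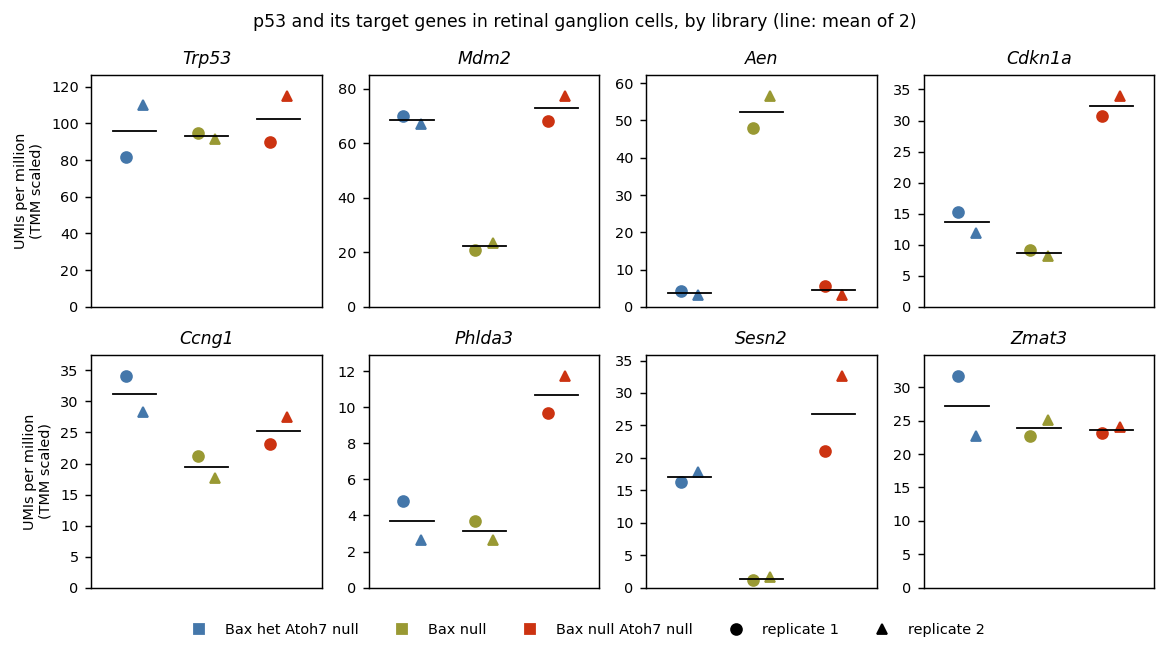
TMM-scaled CPM (vertical axes, each starting at 0) of the 8 tested members in ganglion cells, with 1 point per library in the 3 genotype groups (horizontal axis) and a line at each group mean of 2 libraries. Cdkn1a and Phlda3 are highest in both Bax null Atoh7 null libraries, at 30.7 and 34.0 CPM and at 9.66 and 11.7 CPM, while Aen is high only in Bax null, at 48.0 and 56.7 CPM.

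No member was called for Bax null Atoh7 null against Bax het Atoh7 null in the other 4 types, either by edgeR or by DESeq2. At an unadjusted p under 0.05 there were 0 members in neurogenic cells, 1 in progenitors (Cdkn1a), 2 in cones (Mdm2 and Zmat3) and 1 in cells labelled horizontal (Cdkn1a), while 11.4%, 14.1%, 9.25% and 9.67% of all genes in those types had such a p. Over all genes 1.77% were called in neurogenic cells, 2.01% in progenitors, 1.46% in cones and 1.61% in cells labelled horizontal. Cdkn1a in progenitors was 5.75 and 6.20 CPM in the Bax het Atoh7 null libraries and 7.29 and 8.53 in the Bax null Atoh7 null libraries, so the groups did not overlap. The log2 difference was 0.40 (SE 0.14, adjusted p = 0.248). In neurogenic cells it was 11.3 and 16.9 CPM against 14.9 and 16.2 (0.13, SE 0.20), and in cones 19.7 and 13.7 against 19.4 and 26.5 (0.43, SE 0.33). Both of these pairs of groups overlapped. Cells labelled horizontal gave 2 and 4 Cdkn1a UMIs in the Bax het Atoh7 null libraries and 11 and 8 in the Bax null Atoh7 null libraries, a ratio of 3.95 between the pooled levels with an exact 95% interval of 1.52 to 12.1, which covers counting error only (adjusted p = 0.23 by edgeR).

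Whether the ganglion cell difference exceeded that in progenitors was tested within each library, as the group difference in ganglion cells minus the same difference in progenitors. This test called, for Bax null Atoh7 null against Bax het Atoh7 null, 0 members and 0.102% of all 13670 genes. Cdkn1a gave 0.90 (SE 0.24, adjusted p = 0.271), Phlda3 1.42 (SE 0.40, adjusted p = 0.332) and Sesn2 0.65 (SE 0.26, adjusted p = 0.755), and these 3 were the members with an unadjusted p under 0.05, as had 5.93% of all genes. The same test called 0.0% of genes in neurogenic cells, 0.0152% in cones and 0.0536% in cells labelled horizontal, with no member among them. Unadjusted p-values under 0.05 were found for 0 members in neurogenic cells, for Mdm2 in cones and for Cdkn1a in cells labelled horizontal, and for 4.79%, 4.38% and 5.42% of all genes in those 3 types. The higher Cdkn1a and Phlda3 of Bax null Atoh7 null ganglion cells were therefore not shown to be particular to ganglion cells.

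The second comparison, Bax null Atoh7 null against Bax null, concerns loss of Atoh7 where Bax is absent. It rests on the Bax null libraries, which stand apart, and 52.7% of all genes were called in ganglion cells. The 8 members tested gave 5 calls, with Cdkn1a, Mdm2, Phlda3 and Sesn2 higher and Aen lower in the Bax null Atoh7 null libraries. Cdkn1a was higher by 1.90 (log2, SE 0.17, adjusted p = 1.4e-06) and Phlda3 by 1.75 (SE 0.30, adjusted p = 0.000321), from the levels given above. Without Bax null Atoh7 null replicate 1 the count of called members stayed at 5. The median over the tested members was 1.05, against 0.02 over all genes.

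Mdm2 and Sesn2 separated the Bax null group from both Atoh7 null groups. Mdm2 was 20.9 and 23.4 CPM in the Bax null ganglion cells, below all 4 Atoh7 null libraries. The log2 difference was 1.72 (SE 0.12, adjusted p = 1.78e-07) for the Bax null Atoh7 null group and 1.62 (SE 0.12, adjusted p = 4.42e-07) for the Bax het Atoh7 null group. Sesn2 was 1.101 and 1.56 CPM in Bax null, from 9 and 13 UMIs. Its log2 difference was 4.30 (SE 0.30, adjusted p = 1.84e-07) for the Bax null Atoh7 null group and 3.66 (SE 0.34, adjusted p = 2.7e-06) for the Bax het Atoh7 null group. Part of Sesn2 overlaps the gene model Gm12981 on the same strand, so reads from that stretch could have been assigned to either.

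Aen showed the opposite pattern and did so in every type. In ganglion cells it was 48.0 and 56.7 CPM in Bax null, 4.31 and 3.29 in the Bax het Atoh7 null libraries and 5.52 and 3.29 in the Bax null Atoh7 null libraries. The Bax null libraries lay far above the other 4. The log2 difference was -3.55 (SE 0.22, adjusted p = 6.78e-08) for the Bax null Atoh7 null group and -3.81 (SE 0.24, adjusted p = 8.8e-08) for the Bax het Atoh7 null group. In the other 4 types Aen was lower than in Bax null by between 2.90 and 3.88 on the log2 scale in both contrasts and was called in each.

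Other RNAs moved with these differences in ganglion cells. The 3 red blood cell genes summed to 880 and 720 CPM in the Bax null libraries, 54.3 and 3.91 in the Bax het Atoh7 null libraries, and 135 and 1.32 in the Bax null Atoh7 null libraries. The horizontal cell list summed to 531 and 524 CPM in Bax null and to between 1275 and 1535 in the other 4. Their part in the members' differences was not tested. Microglia genes (at most 4.38 CPM), lens genes (at most 3.14 CPM) and pigment epithelium genes (at most 2.64 CPM) were near 0 in the ganglion cells of all 6 libraries.

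The third comparison, Bax het Atoh7 null against Bax null, differs in both genes, and 50.0% of all genes were called in ganglion cells. The 5 members called were Cdkn1a, Mdm2, Ccng1 and Sesn2, which were higher in the Bax het Atoh7 null libraries, and Aen, which was lower. Cdkn1a differed by 0.62 (SE 0.21, adjusted p = 0.0285), a call that was lost without Bax het Atoh7 null replicate 1 or Bax null replicate 2. Ccng1 was 34.0 and 28.3 CPM in the Bax het Atoh7 null libraries and 21.2 and 17.7 in Bax null, a difference of 0.66 (SE 0.16, adjusted p = 0.00445). Phlda3 differed by 0.16 (SE 0.41, adjusted p = 0.77) and was not called.

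In the other types the contrasts with Bax null again called Mdm2 higher and Aen lower each time. For Bax null Atoh7 null against Bax null the shares of all genes called were 47.3% in neurogenic cells, 53.9% in progenitors, 28.1% in cones and 29.2% in cells labelled horizontal, and for Bax het Atoh7 null against Bax null they were 47.1%, 53.1%, 27.5% and 30.2%. The members called in the first contrast numbered 4, 5, 3 and 3 in those types, and in the second 3, 6, 3 and 2. Mdm2 was higher by 1.05 to 1.55 in these 8 tests. Sesn2 was called higher in progenitors (0.96 in both contrasts, adjusted p = 0.0018 for the Bax null Atoh7 null group and 0.00193 for the Bax het Atoh7 null group) and, for the Bax null Atoh7 null group, in neurogenic cells (1.204, adjusted p = 0.024). The neurogenic call was lost without Bax null replicate 1 (0.80, adjusted p = 0.173) and without either Bax null Atoh7 null library (adjusted p = 0.0728 and 0.0882).

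Phlda3 had opposite directions in different cell types. In progenitors it was 10.2 and 11.4 CPM in Bax null, 6.49 and 5.17 in the Bax het Atoh7 null libraries and 7.21 and 5.71 in the Bax null Atoh7 null libraries, so Bax null was the highest group there. The log2 difference was -0.73 (SE 0.15, adjusted p = 0.00351) for the Bax null Atoh7 null group and -0.88 (SE 0.16, adjusted p = 0.00137) for the Bax het Atoh7 null group. In neurogenic cells the differences were -1.35 (SE 0.35, adjusted p = 0.00748) and -0.96 (SE 0.33, adjusted p = 0.0299). With total UMIs as the only scaling, these 4 calls of a lower Phlda3 were lost. Those in neurogenic cells were also lost without Bax null replicate 2 in both contrasts (-1.08 and -0.69), without Bax null Atoh7 null replicate 1 in the first (-0.96, adjusted p = 0.0718) and without Bax het Atoh7 null replicate 2 in the second (-0.61, adjusted p = 0.249). In ganglion cells, as given above, Bax null Atoh7 null was instead higher than Bax null.

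Cdkn1a was called higher in progenitors for the Bax null Atoh7 null group (0.89, SE 0.14, adjusted p = 0.000705) and for the Bax het Atoh7 null group (0.49, SE 0.15, adjusted p = 0.0185), against 4.20 and 4.29 CPM in Bax null. The Bax het Atoh7 null call was lost without Bax het Atoh7 null replicate 2 or either Bax null library (adjusted p = 0.0801 to 0.0914). In neurogenic cells and cones it was not called in either contrast. Cells labelled horizontal gave 1 Cdkn1a UMI in each Bax null library, and the ratio of the pooled Bax null Atoh7 null level to it was 14.9 with an exact 95% interval of 3.59 to 132 for counting error (adjusted p = 0.00393 by edgeR, and 0.0518 to 0.0803 without Bax null Atoh7 null replicate 1 or either Bax null library). The other calls were Ccng1 in cones for the Bax null Atoh7 null group (0.86, SE 0.28, adjusted p = 0.0268) and in progenitors for the Bax het Atoh7 null group (0.44, SE 0.10, adjusted p = 0.00589), and Trp53 lower in cones for the Bax het Atoh7 null group (-0.47, SE 0.15, adjusted p = 0.0201). Each of these 3 calls was lost without at least 1 library: Ccng1 in cones without Bax null Atoh7 null replicate 1 or either Bax null library (adjusted p = 0.0798 to 0.138), Ccng1 in progenitors without Bax null replicate 2 (adjusted p = 0.0675), and Trp53 in cones without any 1 of the Bax het Atoh7 null or Bax null libraries (adjusted p = 0.0774 to 0.131). Zmat3 was called in no type and no contrast.

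**Figure D3:**
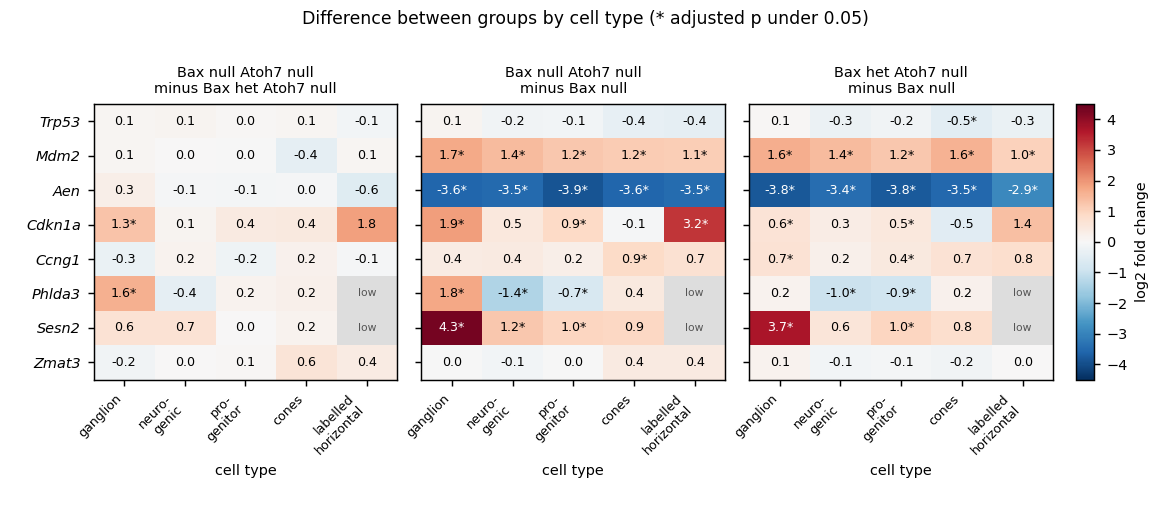
Log2 fold change (colour, blue for lower and red for higher in the first-named group) of the 8 tested members (rows) in 5 cell types (columns) for the 3 contrasts (panels), with a star at an adjusted p under 0.05 and "low" where a member was not tested. For Bax null Atoh7 null against Bax het Atoh7 null the stars are limited to Cdkn1a and Phlda3 in ganglion cells, and in the 2 contrasts against Bax null Aen is lower and Mdm2 higher in every column.

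The test within libraries found members whose difference from Bax null was larger in ganglion cells than in progenitors. It called 5 members for Bax null Atoh7 null against Bax null, beside 15.7% of all genes. These were Sesn2 (3.35, SE 0.34, adjusted p = 1.94e-10), Phlda3 (2.51, SE 0.31, adjusted p = 2.9e-08), Cdkn1a (1.03, SE 0.21, adjusted p = 0.000247), Mdm2 (0.53, SE 0.13, adjusted p = 0.00252) and Trp53 (0.27, SE 0.08, adjusted p = 0.0192). The Trp53 call was lost without the shared barcodes (0.26, adjusted p = 0.0599) and without any 1 of the Bax null or Bax null Atoh7 null libraries (0.23 to 0.28, adjusted p = 0.0803 to 0.20). Mdm2 was also lost without Bax null replicate 1 (0.37, adjusted p = 0.166), which left 3 members called. It called 2 for Bax het Atoh7 null against Bax null, beside 15.2% of all genes: Sesn2 (2.70, SE 0.37, adjusted p = 2.52e-07) and Mdm2 (0.40, SE 0.13, adjusted p = 0.0317). The Mdm2 call was lost without either Bax het Atoh7 null library (adjusted p = 0.168 and 0.169) or Bax null replicate 1 (0.24, adjusted p = 0.441). Cdkn1a gave 0.13 there (SE 0.25, adjusted p = 0.805). Aen gave 0.36 (SE 0.35) and -0.07 (SE 0.38) in the 2 contrasts and was called in neither.

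In neurogenic cells, cones and cells labelled horizontal this test called no member in either contrast with Bax null by edgeR, against 7.46%, 4.91% and 3.09% of all genes for the Bax null Atoh7 null group and 8.35%, 5.3% and 2.65% for the Bax het Atoh7 null group. Members with an unadjusted p under 0.05 were Cdkn1a in neurogenic cells and in cells labelled horizontal and Cdkn1a, Phlda3 and Ccng1 in cones for the Bax null Atoh7 null group, and Cdkn1a and Phlda3 in cones for the Bax het Atoh7 null group. Such a p was found for 13.1% to 20.3% of all genes over these 6 tests. DESeq2 was not run on this test. Phlda3 in cones gave 1.24 (SE 0.43, adjusted p = 0.076) for the Bax null Atoh7 null group. Cdkn1a in cones gave -0.87 (SE 0.35, adjusted p = 0.154).

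A large part of the Cdkn1a UMIs of Bax null Atoh7 null ganglion cells lay in 1 of the authors' 142 clusters, numbered 62. It was picked out after its values were seen, as the cluster with the highest Cdkn1a level (95.8 CPM pooled over libraries, against 47.1 CPM in the next, a cone cluster), and it was drawn by the authors from all genes, so its values are given without a test. Within single libraries, among the clusters with at least 20 cells there, it ranked 1 for Cdkn1a in all 4 Atoh7 null libraries, and 17 of 102 and 4 of 100 in the Bax null libraries, which gave 43 and 31 of its cells. Cluster 62 held 666 cells under the ganglion cell label. It made up 10.9% and 11.3% of ganglion cells in the Bax het Atoh7 null libraries, 2.43% and 1.97% in Bax null, and 16.6% and 18.4% in the Bax null Atoh7 null libraries. The genes highest in it against the other ganglion cells were Atf3, Nupr1, Chac1, Slc7a3, Trim66, Cebpb, Trib3, Sesn2, Cacng3 and Slc7a11. Atf3, Chac1, Trib3 and Sesn2 are known targets of the integrated stress response, in which the factor Atf4 is made when protein synthesis slows.

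Levels inside and outside the cluster are plain CPM of the UMIs of those cells, without TMM scaling. Inside cluster 62 Cdkn1a measured 77.3 and 53.3 CPM in the Bax het Atoh7 null libraries, 11.9 and 23.2 in Bax null (from 3 and 5 UMIs), and 160 and 158 in the Bax null Atoh7 null libraries. In the remaining ganglion cells it measured 8.86 and 7.61 CPM in the Bax het Atoh7 null libraries, 7.04 and 5.89 in Bax null, and 8.24 and 15.02 in the Bax null Atoh7 null libraries. Outside the cluster Bax null Atoh7 null replicate 2 was the highest, with a counting interval of 9.98 to 21.7 CPM. In plain CPM this interval lay above those of both Bax null libraries (5.51 to 8.87 and 4.53 to 7.54). Scaling by total UMIs alone shifted the median ganglion cell gene by 0.63 (log2) between these groups, against 0.02 with TMM. Whether the intervals stay apart on the TMM scale was not tested, so no group difference is read from them. The cluster held 53.1% and 47.2% of all ganglion cell Cdkn1a UMIs in the Bax het Atoh7 null libraries, 4.0% and 7.35% in Bax null, and 80.9% and 69.9% in the Bax null Atoh7 null libraries. With cluster 62 left out of the sums, the log2 difference of Cdkn1a was 0.38 for Bax null Atoh7 null against Bax het Atoh7 null, 0.24 for Bax null Atoh7 null against Bax null and -0.15 for Bax het Atoh7 null against Bax null. Since the cluster was chosen for its Cdkn1a level, these values describe the remaining cells and test nothing.

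Sesn2 and Phlda3 were also higher inside the cluster than outside it in the Atoh7 null libraries. Sesn2 measured 100 and 110 CPM inside the cluster in the Bax het Atoh7 null libraries and 116 and 187 in the Bax null Atoh7 null libraries, against 7.08 and 7.61 outside it in the Bax het Atoh7 null libraries and 4.36 and 6.44 in the Bax null Atoh7 null libraries. Phlda3 measured 13.6 and 15.7 CPM inside it in the Bax het Atoh7 null libraries (3 and 5 UMIs) and 44.5 and 53.4 in the Bax null Atoh7 null libraries (20 and 22 UMIs), against 4.13 and 1.201 outside in the Bax het Atoh7 null libraries and 3.88 and 5.37 in the Bax null Atoh7 null libraries. The Phlda3 counting intervals inside and outside overlapped in Bax het Atoh7 null replicate 1 (2.81 to 39.9 CPM inside, 1.66 to 8.5 outside). They did not overlap in the other Atoh7 null libraries. Sesn2 and Phlda3 both gave 0 UMIs in the 43 and 31 cluster cells of the Bax null libraries, where the upper 95% limits were 14.6 and 17.1 CPM. Sesn2 is among the genes that lead the cluster, whereas Phlda3 and Cdkn1a are not among its first 10.

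The feedback genes were less concentrated there. Ccng1 measured 81.8 and 40.8 CPM inside and 31.3 and 29.2 outside in the Bax het Atoh7 null libraries, and 57.8 and 77.7 inside and 19.9 and 23.1 outside in the Bax null Atoh7 null libraries. Mdm2 measured 86.4 and 72.2 inside and 74.98 and 72.4 outside in the Bax het Atoh7 null libraries, and 120 and 114 inside and 69.8 and 88.5 outside in the Bax null Atoh7 null libraries. For Ccng1 the counting intervals inside and outside did not overlap in Bax het Atoh7 null replicate 1 and both Bax null Atoh7 null libraries, and did overlap in Bax het Atoh7 null replicate 2. For Mdm2 they did not overlap in Bax null Atoh7 null replicate 1 alone (90.2 to 157 CPM inside, 58.9 to 82.2 outside). The intervals of Trp53 overlapped in all 6 libraries, with 73.4 and 141 CPM inside and 110 and 138 outside in the Bax null Atoh7 null libraries. Bbc3, a p53 target whose product activates Bax, measured 382 and 425 CPM inside and 68.8 and 67.1 outside in the Bax null Atoh7 null libraries, and 209 and 276 inside and 52.5 and 43.2 outside in the Bax het Atoh7 null libraries.

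**Figure D4:**
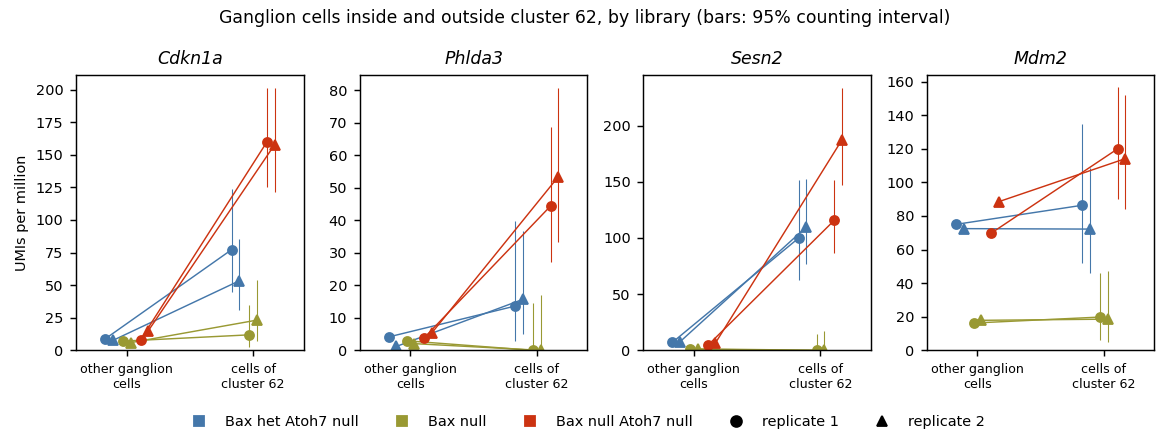
Level of Cdkn1a, Phlda3, Sesn2 and Mdm2 in CPM (vertical axes) in ganglion cells outside and inside cluster 62 (horizontal axis), with a line joining the 2 points of each of the 6 libraries and exact 95% intervals that cover counting error only. Inside the cluster Cdkn1a reaches 160 and 158 CPM in the Bax null Atoh7 null libraries and 77.3 and 53.3 CPM in the Bax het Atoh7 null libraries, while Mdm2 lies near its outside level in most libraries.

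Cells with and without a Cdkn1a UMI were then compared within each library. A Cdkn1a UMI was found in 3.75% and 2.65% of ganglion cells in the Bax het Atoh7 null libraries, 3.84% and 3.76% in Bax null, and 5.12% and 5.27% in the Bax null Atoh7 null libraries. After thinning every cell to 1500 UMIs these shares were 2.24% and 1.41%, 0.686% and 1.098%, and 4.41% and 3.75%, so that the Bax null group moved from the middle to the lowest. In cells labelled horizontal, the type with the lowest Cdkn1a, the shares at that depth were between 0.0% and 1.41%. Thinning left out 43 and 62 ganglion cells in the Bax het Atoh7 null libraries, 23 in each Bax null library, and 313 and 312 in the Bax null Atoh7 null libraries. Each cell with a UMI was paired with a cell of the same library and type and the nearest UMI total but no Cdkn1a, and the sums were tested by edgeR with library as a block. In ganglion cells 25 and 28 cells entered from Bax het Atoh7 null, 68 and 59 from Bax null, and 59 and 60 from Bax null Atoh7 null. Cluster 62 held 12 of these cells in each Bax het Atoh7 null library, 3 and 4 of those from Bax null, and 45 and 40 of those from Bax null Atoh7 null, so in the Atoh7 null libraries this comparison and that of the cluster rest in large part on the same cells.

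In ganglion cells 6.0% of the 2399 genes tested differed between the 2 sets. Of the members other than Cdkn1a only Trp53 was high enough to be tested, and it did not differ, at -0.00 on the log2 scale (SE 0.19, adjusted p = 1.0, higher in 3 of 6 libraries). Of the 4 integrated stress response genes tested 3 were higher in the Cdkn1a cells: Ddit3 by 1.74 (SE 0.21, adjusted p = 7.46e-06, in 6 of 6 libraries), Atf5 by 1.31 (SE 0.29, adjusted p = 0.00669, in 5) and Asns by 1.19 (SE 0.22, adjusted p = 0.00162, in 5). The fourth, Atf4, gave 0.46 (SE 0.21, adjusted p = 0.227, higher in 4 of 6 libraries). Of the 7 further p53 targets tested 1 was higher, 1 was lower and 5 were not called, with a list median of -0.21. Bbc3 was higher by 1.03 (SE 0.22, adjusted p = 0.00656, in 5 of 6 libraries), a call lost without Bax null Atoh7 null replicate 2 (0.86, adjusted p = 0.0695). Gadd45a, a growth arrest gene that is both a p53 target and a neurogenic cell marker, was lower by 1.05 in the Cdkn1a cells (log2 difference -1.05, SE 0.14, adjusted p = 2.75e-05), in 6 of 6 libraries.

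Ddit3 was lowest in Bax null in both sets of cells, in plain CPM. It measured 453 and 254 CPM in the Cdkn1a cells of Bax het Atoh7 null against 126 and 47.9 in their matched cells, 584 and 507 against 174 and 88.8 in the Bax null Atoh7 null libraries, and 36.9 and 29.97 against 18.4 and 23.97 in Bax null. Cell type markers moved along with it. Of the 9 ganglion cell markers tested 6 were higher in the Cdkn1a cells and 3 were not called. Sncg (0.80), Nefl (0.56), Nefm (0.51), Gap43 (0.44) and Elavl4 (0.36) were higher in 6 of 6 libraries, while Pou4f1 gave 0.47 (adjusted p = 0.114), Stmn2 0.02 and Isl1 -0.14. Of the 6 neurogenic markers tested 4 were lower (Mfng -1.22, Neurog2 -1.08, Hes6 -0.78 and Gadd45a), and of the 7 progenitor markers 2 were lower (Ccnd1 -0.74 and Rax -0.69) and 5 were not called. The part of these markers' differences in those of Ddit3 and Bbc3 was not tested.

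In progenitors (115 to 167 cells with a Cdkn1a UMI per library) 1.04% of 5486 genes differed. Of the 10 further p53 targets tested 1 was higher and 1 lower, with a list median of 0.05. Of the 6 neurogenic markers tested 2 were higher (Hes6, 0.42, and Btg2) and 4 were not called. Of the 10 progenitor markers 2 were higher, 1 was lower (Cdc20, -0.61) and 7 were not called. The p53 target Btg2, an antiproliferative gene that also marks cells about to become neurons, was higher by 0.58 (SE 0.12, adjusted p = 0.00169) in 6 of 6 libraries. That call was lost when the deepest 8% of cells were left out (0.37, adjusted p = 0.301). Psrc1, a spindle gene, was lower by 0.76 (log2 difference -0.76, SE 0.20, adjusted p = 0.0275), in 5 of 6 libraries, and this call was lost without Bax het Atoh7 null replicate 1, Bax null replicate 1 or either Bax null Atoh7 null library (-0.63 to -0.68, adjusted p = 0.126 to 0.241). Mdm2 gave 0.25 (SE 0.21, adjusted p = 0.808) and Trp53 0.18 (SE 0.10, adjusted p = 0.599). No member was called by edgeR in progenitors, and none had an unadjusted p under 0.05, as had 9.59% of all genes. DESeq2 was not run on these sums.

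In neurogenic cells (57 to 95 per library) 1.56% of 3779 genes differed, and 0 of the members tested did. Mdm2 gave 0.28 (SE 0.22, adjusted p = 0.77) and Trp53 0.13 (SE 0.13, adjusted p = 0.812). Of the 10 neurogenic markers 4 were called, all higher, among them Hes6 (0.31, SE 0.04, adjusted p = 1.2e-09) and Neurog2 (0.39, SE 0.07, adjusted p = 2.02e-05), both in 6 of 6 libraries. Gadd45a, which was lower in the Cdkn1a cells of ganglion type, gave 0.04 (SE 0.05) here. Ddit3, Asns and Bbc3 in progenitors gave 0.28 (SE 0.21), 0.33 (SE 0.19) and 0.29 (SE 0.21), none of them called. The difference between cell types in these values was not tested.

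**Figure D5:**
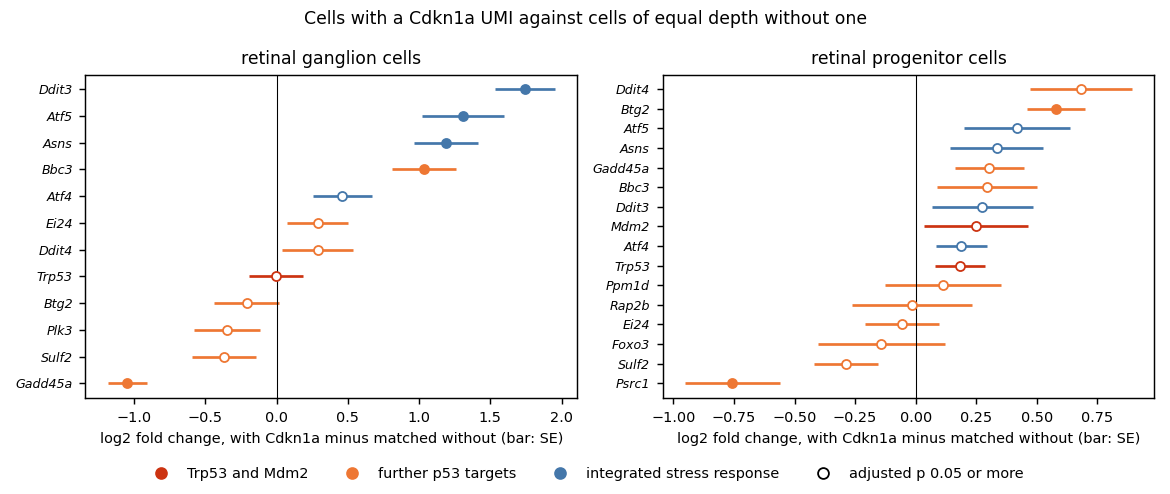
Log2 difference (horizontal axis, with bars of 1 SE) of pathway genes (rows) between cells with a Cdkn1a UMI and depth-matched cells without one, in ganglion cells and in progenitors (panels), from edgeR with library as a block. Ddit3 (1.74), Atf5 (1.31), Asns (1.19) and Bbc3 (1.03) lie to the right and Gadd45a (-1.05) to the left in ganglion cells, and Btg2 (0.58) lies to the right in progenitors.

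The wider pathway was read from lists of 36 further p53 targets and 22 p53 regulators. For Bax null Atoh7 null against Bax het Atoh7 null in ganglion cells 2 of the 24 further targets tested were called, both higher. Bbc3 was 64.7 and 64.4 CPM in the Bax het Atoh7 null libraries, 94.7 and 102 in Bax null, and 108 and 110 in the Bax null Atoh7 null libraries. Its level was thus lowest in the group with a Bax copy. The difference from Bax het Atoh7 null was 0.76 (SE 0.11, adjusted p = 0.0023). Ddit4, an inhibitor of mTOR signalling, was 76.2 and 63.5 CPM in the Bax het Atoh7 null libraries and 101 and 96.5 in the Bax null Atoh7 null libraries (0.51, SE 0.12, adjusted p = 0.0395), a call lost without Bax het Atoh7 null replicate 2, Bax null Atoh7 null replicate 1 or either Bax null library. The median of the list was 0.02, against 0.00 over all genes.

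None of the 17 regulators tested was called by edgeR or DESeq2 in that contrast, with 1 (Crebbp) at an unadjusted p under 0.05, as had 12.9% of all genes. In the other 4 types edgeR and DESeq2 called 0 of the further targets and of the regulators for Bax null Atoh7 null against Bax het Atoh7 null. At an unadjusted p under 0.05 there were 1 to 2 of each list per type by edgeR. Within libraries against progenitors neither was called, at 0.49 (SE 0.13, adjusted p = 0.295) for Bbc3 and 0.36 (SE 0.12, adjusted p = 0.607) for Ddit4.

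The 8 integrated stress response genes, 1 of which is the member Sesn2, gave 5 calls, all higher, and a median of 0.75 in that contrast. Atf3 was 16.3 and 16.8 CPM in the Bax het Atoh7 null libraries, 0.490 and 0.599 in Bax null, and 40.4 and 46.1 in the Bax null Atoh7 null libraries. The difference from Bax het Atoh7 null was 1.38 (SE 0.17, adjusted p = 0.00135). Atf5 differed by 0.87 (SE 0.14, adjusted p = 0.00509), Ddit3 by 0.73 (SE 0.12, adjusted p = 0.00615), Asns by 0.56 (SE 0.10, adjusted p = 0.011) and Atf4 by 0.48 (SE 0.11, adjusted p = 0.0366). Chac1 (0.78, adjusted p = 0.123) and Trib3 (0.78, adjusted p = 0.0972) were not called. Without Bax het Atoh7 null replicate 2 the calls of Atf5 (0.83, adjusted p = 0.0769), Ddit3 (0.55, adjusted p = 0.112), Asns (0.64, adjusted p = 0.0622) and Atf4 (0.55, adjusted p = 0.167) were lost, and Asns was also lost without Bax het Atoh7 null replicate 1 and Atf4 without any 1 library but Bax null Atoh7 null replicate 2. Within libraries against progenitors Ddit3 (0.86, SE 0.11, adjusted p = 1.01e-05), Asns (0.67, SE 0.12, adjusted p = 0.00795) and Atf3 (1.31, SE 0.25, adjusted p = 0.0105) were called. Without Bax het Atoh7 null replicate 2 the Atf3 (adjusted p = 0.0617) and Asns (adjusted p = 0.972) calls were lost, and each was also lost without 1 other library.

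Against Bax null, in ganglion cells 11 of 24 further targets were higher and 2 lower for the Bax null Atoh7 null group, and 10 were higher and 4 lower for the Bax het Atoh7 null group. The regulators gave 3 higher and 4 lower of 17 for the Bax null Atoh7 null group and 2 higher and 5 lower for the Bax het Atoh7 null group, and the stress response list gave 7 higher of 8 for both, with 1 lower for the Bax het Atoh7 null group (Atf4). Bbc3 was lower by 0.61 in the Bax het Atoh7 null libraries (log2 difference -0.61, SE 0.10, adjusted p = 0.000278) and differed by 0.15 in the Bax null Atoh7 null libraries (adjusted p = 0.192). Of all genes 2776 were called higher and 2804 lower for the Bax null Atoh7 null group, and 2647 higher and 2650 lower for the Bax het Atoh7 null group. In cones the stress response list instead gave 0 higher and 3 lower of 8 for the Bax null Atoh7 null group, and 0 higher and 4 lower for the Bax het Atoh7 null group. Progenitors gave 4 higher and 2 lower of 8, and 5 higher and 2 lower, in the same order. Neurogenic cells (6 tested) and cells labelled horizontal (4 tested) gave 0 to 2 higher and 1 lower in each contrast. Of all genes, in the same order, 12.5% and 12.7% were called higher in cones and 15.6% and 14.8% lower. In progenitors 26.8% and 26.6% were higher and 27.1% and 26.5% lower. In neurogenic cells 23.5% and 23.4% were higher and 23.8% lower in both. In cells labelled horizontal 13.5% and 14.4% were higher and 15.7% and 15.8% lower.

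Only Trp53 and Mdm2 reached a mean of 20 CPM over the 30 sums of library and type, the level set for a search of genes with a like pattern. Over those 30 sums, centred within each library, Trp53 was most like Ssb (Pearson r 0.947) and Tra2b (0.942) among 5865 genes, and Mdm2 most like Rcor2 (0.851) and Ccdc174 (0.850). The points share libraries and depth, so these values are descriptive.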

How the data were processed

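The authors deposited raw UMI counts per gene and cell for 27998 genes, with a library, cell type and cluster label per cell, per the file headers. Cell Ranger 1.2.1 and the mm10 build are named in the submitters' processing notes, and the filters on cells, the clustering method and the use of strand in counting are not given in the sources used here. The deposited counts ran from 500 to 19948 UMIs per cell, and no doublet caller was run. For 56 symbols with more than 1 identifier, each identifier was kept as a separate gene.

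Counts were summed per library and cell type (Python 3.11.15, pandas 2.3.3). Groups were compared in R 4.3.3 with edgeR 4.0.16 (glmQLFit and glmQLFTest, TMM, filterByExpr, Benjamini-Hochberg over all genes tested), in 1 fit of all 6 libraries per cell type. All libraries thus share 1 estimate of the spread, which leaves a lone library of a group, when its partner is left out, to vary like the others. The test against progenitors and the test of cells with a Cdkn1a UMI carried library as a block. Scripts were tested on simulated data. Intervals and floors (3 counts) are at 95% and cover counting error only.

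Alternatives were RLE scaling, DESeq2 1.42.0, the replicate number as a replicate block, all genes kept whatever their count, a fit of only the 4 libraries compared, thinned sums, deep or shallow cells left out, unmatched cells and each library left out. Scaling by total UMIs, the shared barcodes, cluster 62 and a crossed block were added after seeing the data. The members and gene lists were chosen with earlier results of these data known. Named are the members, the check genes, list genes called for Bax null Atoh7 null against Bax het Atoh7 null in ganglion cells or in the Cdkn1a comparison, the integrated stress response genes, and the genes most like a member. Other genes, including the leading genes of cluster 62, were chosen after their values were seen.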

Additional observations from a re-analysis of the deposited data

Results flagged for a closer look

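Whether a group difference had a different size in ganglion cells than in progenitors was tested directly within libraries by edgeR, and 7 such differences between cell types passed an adjusted p of 0.05. For Bax null Atoh7 null against Bax null, Sesn2 had a log2 difference larger by 3.35 in ganglion cells than in progenitors, Phlda3 by 2.51, Cdkn1a by 1.03, Mdm2 by 0.53 and Trp53 by 0.27. For Bax het Atoh7 null against Bax null the excess was 2.70 for Sesn2 and 0.40 for Mdm2. Both contrasts share the Bax null libraries, so the values are not independent of each other. The smaller ones, for Trp53 and Mdm2, were lost on leaving out single libraries, as given with those results, and those of Sesn2 in both contrasts and of Phlda3 and Cdkn1a in the first were not.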

How the results depend on the processing

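Of 218 log2 differences of members tested, 48 were called, and 30 of these kept their direction and call under every alternative run. For Bax null Atoh7 null against Bax het Atoh7 null in ganglion cells 2 members were called, against 1 by DESeq2 (which gave no adjusted p for Phlda3), with no filter on low counts, in only the 4 libraries compared, in thinned sums and without the shared barcodes, and 0 without cluster 62, which was chosen for its Cdkn1a level, so that counts without it are not independent of that choice. Leaving out single libraries gave 0 to 3. For Bax null Atoh7 null against Bax null, total UMIs as the only scaling raised the count over all genes. It went from 5580 to 7421 of 10586 in ganglion cells and from 5518 to 7880 of 11670 in neurogenic cells. In cones it went from 2649 to 4649 of 9421, and in cells labelled horizontal from 2617 to 4488 of 8960. Members called under that scaling numbered 8 in ganglion cells (5 in the main analysis), 7 in neurogenic cells (4), 6 in cones (3) and 5 in cells labelled horizontal (3). Thinned sums gave 2 in neurogenic cells, single leave-outs 2 to 5 there, and ganglion cells without cluster 62 gave 3. For Bax het Atoh7 null against Bax null, thinned sums gave 3 in ganglion cells (5). With total UMIs in neurogenic cells, all genes called went from 5499 to 7171 of 11670 and members called from 3 to 5. Against progenitors within libraries, total UMIs gave 1 in ganglion cells (2) for Bax het Atoh7 null against Bax null, single leave-outs gave 1 to 2 there and 0 to 1 in cones, and for Bax null Atoh7 null against Bax null they gave 3 to 5 in ganglion cells. Cells not matched on depth gave 2 members in ganglion cells and 1 in neurogenic cells (0 in both when matched). These were members too low to be tested in the matched sums, which tested 1 member in ganglion cells and 2 in neurogenic cells. Of the members tested in both, 0 were newly called without matching. Fewer reads, cells or libraries enter the thinned sums, the cluster left out and the leave-outs by construction. The cause of the remaining changes was not tested.

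With total UMIs as the only scaling, 7 values near 0 turned to called and higher than in Bax null: for Bax null Atoh7 null, Trp53 in neurogenic cells (0.44) and progenitors (0.53) and Zmat3 in ganglion cells (0.59), neurogenic cells (0.46) and progenitors (0.60), and for Bax het Atoh7 null, Trp53 (0.38) and Zmat3 (0.46) in progenitors. Without cluster 62 Cdkn1a in ganglion cells turned to -0.15 for Bax het Atoh7 null against Bax null. Over all genes, DESeq2 called 1212 and 1095 genes in cones and 1209 and 1058 in cells labelled horizontal in the 2 contrasts with Bax null, against 2649, 2591, 2617 and 2705 by edgeR. In Bax null Atoh7 null against Bax het Atoh7 null it called 79 against 138 and 71 against 144. Leaving out the shared barcodes took the count in progenitors from 269 to 98 there, and total UMIs gave 4649 in cones and 4488 in cells labelled horizontal for Bax null Atoh7 null against Bax null.

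The replicate numbers were shared between groups, with only 2 pairs, and nothing in the labels says that they mark a shared animal or day. The replicate block changed no member's call: Cdkn1a in ganglion cells was 1.27 (adjusted p = 0.00115) and Phlda3 1.57 (adjusted p = 0.0291) for Bax null Atoh7 null against Bax het Atoh7 null, with 326 genes called in all against 248. The deviations of same-numbered libraries correlated at 0.062 to 0.461 in that contrast and at -0.165 to -0.018 for Bax null Atoh7 null against Bax null. In the latter a crossed replicate block called 5 members in neurogenic cells, beside 5800 of all 11670 genes. It called 5 members in progenitors, beside 7401 of all 13396 genes. Members with under 100 UMIs per type and library (Cdkn1a, Phlda3 and Sesn2 in ganglion cells) are limited by depth, and Eda2r and Fas could not be compared.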
